A study of Danio rerio with 6 samples.

Results

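Cells hold on to the extracellular matrix and to each other through a small number of gene families, and 94 of the 31953 genes in the deposited tables belong to those families by name. They are the genes whose names start as integrin alpha or beta chains (33 genes), laminin chains (12) or collagen chains (47), together with cd44a and fn1a. The names also take in 4 genes that encode no such chain: itgb1bp1, which encodes a cytoplasmic partner of integrin beta tails, the integrin beta like gene itgbl1, and col4a3bpa and col4a3bpb, which encode ceramide transfer proteins.

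RNA was sequenced from dissociated zebrafish embryos of 6 hpf, a stage counted in hours post fertilisation and lying at the onset of gastrulation. All embryos carried Tg(krt18:krt18-GFP), which places a GFP-tagged keratin 18 in the enveloping layer (EVL), the outermost epithelial sheet. Cells sorted as GFP-positive (EVL) and as GFP-negative (non-EVL, all other cells of the suspension) gave 3 libraries each, from pools of about 1500 embryos, and both groups carried the same transgene. The libraries held 32187658 to 46144557 reads assigned to genes. Whether the 3 libraries of a group stem from separate clutches or sorts is not in the labels, so p-values describe the spread of these libraries only, and that spread may be technical.

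Integrins are receptors made of 1 alpha and 1 beta chain, and the pair decides what the cell binds: alpha 5 with beta 1 binds fibronectin, alpha 6 binds laminin, and alpha 1 or alpha 2 with beta 1 binds collagen. Laminins are trimers of an alpha, a beta and a gamma chain and form, with type IV collagen, the sheet of the basement membrane. Fibrillar collagens (types I, II and others) form fibres, collagen XVII is a transmembrane collagen of hemidesmosomes, the junctions that tie basal epithelial cells to the basement membrane, and CD44 is a cell surface receptor for the matrix sugar hyaluronan. In the zebrafish gastrula, fibronectin and laminin line the boundaries between germ layers beneath the surface.

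All values below are the authors' normalised reads, that is, reads per gene divided by a library factor. Differences are GFP-positive minus GFP-negative on the log2(value + 1) scale, which understates changes of genes with low values. A gene was tested if at least 3 libraries reached a value of 10, and called if the limma p adjusted over all 15971 tested genes was under 0.05. Transcript lengths were not used, so levels are compared between groups and not between genes.

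Of the 94 genes 53 were tested, and 10 of these were called higher in EVL cells and 0 lower, against 8.80% higher and 0.676% lower among all tested genes. At an unadjusted limma p under 0.05, 16 of the 53 were higher and 0 lower, against 2528 and 1150 of all 15971 tested genes. Of the 53, 0 were called lower by DESeq2 (12.4% of all tested genes higher and 2.09% lower) or by edgeR with the authors' factors (8.50% and 0.438%). The 10 were cd44a, 2 of 7 tested laminin chains (lama4 and lama5), 6 of 27 tested collagen names (col1a2, col2a1a, col4a5, col9a1b, col10a1a and col17a1a) and 1 of 17 tested integrin names (itga1). Of the 10, col1a2, col9a1b and col2a1a reached the minimum level in GFP-positive libraries only, so they could enter the test only by being high there. Among genes that reached it in at least 1 library of each group, a count added after the data were seen, 7 of 50 were higher and 0 lower, against 7.60% and 0.662% of all such genes, with 3 of 24 collagen names higher. The median difference was 0.26 over the 53 genes and -0.057 over all tested genes, with -0.13 for integrins, 0.59 for laminins and 0.58 for collagens. With libraries scaled to their totals alone in edgeR, the median was -0.22 over the 53 genes and -0.37 over all tested genes, and with upper quartile scaling these were -0.045 and -0.24. In 15 of the 53 every GFP-positive library lay above every GFP-negative one and in 2 below, where 17.4% and 13.5% of all tested genes did so. The other 41 genes did not reach the minimum level: 4 had no read in any library, and the highest value of any of them in 1 library was 71.1.

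**Figure D1:**
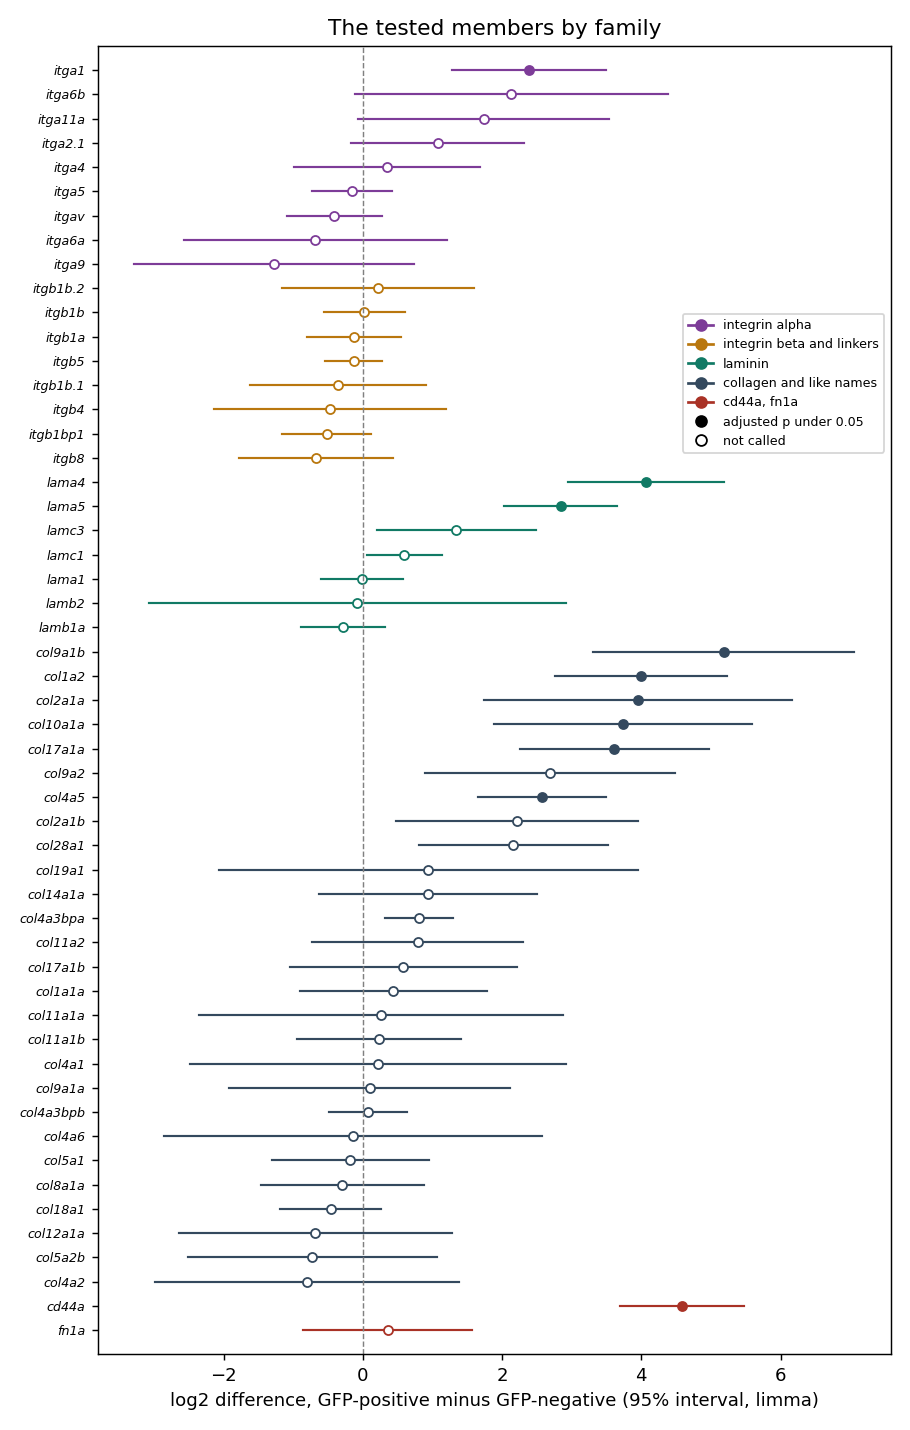
Log2 difference between GFP-positive and GFP-negative cells for the 53 tested genes, ordered within families, with 95% intervals from limma (n = 3 libraries per group). Filled points mark the 10 genes called at an adjusted p under 0.05, all to the right of 0; 8 of 9 integrin alpha and all 8 integrin beta names are open.

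The hyaluronan receptor gene cd44a (ENSDARG00000087863) had 4792, 4670.1 and 2962 normalised reads in GFP-positive replicates 1, 2 and 3, and 91.2, 245 and 211 in GFP-negative replicates 1, 2 and 3. The groups did not overlap, and GFP-negative replicate 1 was the lowest library. The difference was 24.0-fold (4141 ± 1023 against 182 ± 80.9, mean ± SD, n = 3 each; log2 difference 4.58, SE 0.39; limma, adjusted p = 0.000647). In a bulk sample, fewer cells of a type and less RNA per cell cannot be told apart, here and in all results that follow. Its paralog cd44b had between 0 and 7.05 normalised reads in the 6 libraries and was not tested.

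The list of genes linked to hyaluronan covered its making, binding and breakdown, and linkers of the ezrin, moesin and merlin family. It gave 0 calls among 17 tested, against 8.80% higher and 0.676% lower over all tested genes (limma). At an unadjusted limma p under 0.05, 4 were higher and 2 lower, against 2528 and 1150 of all 15971 tested genes. The linker gene msna, whose product moesin joins CD44 tails to actin, had 7224 ± 990.5 in GFP-positive and 9564 ± 968 in GFP-negative cells (log2 difference -0.41, SE 0.16; limma, adjusted p = 0.179). The hyaluronan synthase gene has2, named after its values were seen, had 274, 562 and 460.1 normalised reads in the GFP-positive libraries and 1098, 878 and 780.2 in the GFP-negative ones. These groups did not overlap, and the difference missed the threshold (log2 difference -1.13, SE 0.30; limma, adjusted p = 0.0534). The 4 higher at an unadjusted p under 0.05, also named after their values were seen, were the hyaluronan scavenger receptor gene stab2 (log2 difference 1.65; limma, adjusted p = 0.0737), the versican gene vcana (1.02; 0.0812) and the link protein genes hapln3 (2.39; 0.146) and hapln1b (2.78; 0.175). The groups did not overlap for stab2, vcana and hapln3, and overlapped for hapln1b.

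Both laminins that rose encode alpha chains. The lama5 gene (ENSDARG00000058543), for the laminin alpha 5 chain of epithelial basement membranes, had 714, 526 and 323 normalised reads in GFP-positive replicates 1 to 3 and 81.7, 58.8 and 66.3 in the GFP-negative replicates. The lowest EVL library was thus well above the highest non-EVL library, and the difference was 7.16-fold (log2 difference 2.84, SE 0.36; limma, adjusted p = 0.00175). The lama4 gene (ENSDARG00000020785), for an alpha chain known from vessel and muscle basement membranes, had 130.4, 229 and 147 against 5.21, 9.19 and 14.1. It was 16.7-fold higher from a low GFP-negative level (log2 difference 4.06, SE 0.49; limma, adjusted p = 0.00141).

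The third tested alpha chain gene, lama1, was not called. It had 3361 ± 481 normalised reads in GFP-positive and 3505 ± 1256 in GFP-negative cells (log2 difference -0.01, 95% interval -0.60 to 0.57; limma, adjusted p = 0.985). The log2 ratio of lama5 to lama1 within a library, which does not depend on how libraries are scaled, was -2.26, -2.44 and -3.56 in GFP-positive replicates 1 to 3 and -5.90, -5.42 and -5.49 in the GFP-negative ones. It differed by 2.85 between the groups without overlap (two-sided exact permutation p = 0.1, the smallest that 3 against 3 libraries can give). The ratio rests on the same lama5 values as the call above, so it is not separate support for that call.

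The beta and gamma chains with which an alpha chain must assemble were not called. The lamb1a gene had 6698 ± 254 in GFP-positive and 8632 ± 3532 in GFP-negative cells (log2 difference -0.29, 95% interval -0.89 to 0.31; limma, adjusted p = 0.563). For lamc1 the values were 2601, 1537 and 2082 against 1616, 1286 and 1162, which overlapped in a single pair of libraries (log2 difference 0.59, 95% interval 0.06 to 1.13; limma, adjusted p = 0.174). The ratio of lamc1 to lamb1a did not overlap between groups, with a log2 difference of 0.89 (exact permutation p = 0.1). The second gamma chain gene, lamc3, had 54.0, 43.2 and 30.5 against 10.4, 21.1 and 17.6 without overlap and without a call (log2 difference 1.34, SE 0.50; limma, adjusted p = 0.152).

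The laminin alpha 3 gene lama3 had 0 in 5 of 6 libraries and 2.82 in GFP-negative replicate 3. The gene listed in capitals as LAMB3, which the name rule leaves out, had 26.3, 34.3 and 0 in the GFP-positive libraries and 9.56, 0 and 4.93 in the GFP-negative ones. Neither gene was tested, and both were named after their values were seen. Just outside the minimum level stood lamb1b, with 71.1, 9.96 and 4.51 against 0, 7.35 and 0, and just inside it lamb2, with 14.5, 0 and 11.3 against 0.869, 8.27 and 12.0.

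Among basement membrane partners, 1 of 14 tested genes (7.14%) was higher and 0 lower, near the 8.80% of all tested genes. It was fras1, for a surface matrix protein of epithelia, at 264 ± 47.2 against 67.7 ± 24.6 normalised reads (n = 3 each; log2 difference 2.00, SE 0.36; limma, adjusted p = 0.0105). Without adjustment, at a limma p under 0.05, 3 were higher and 0 lower, against 2528 and 1150 of all 15971 tested genes. Beside fras1 these were the nidogen gene nid2b and frem3, named after their values were seen. The nid2b gene had 474, 44.3 and 86.8 against 20.9, 1.84 and 12.7 (log2 difference 3.71, limma adjusted p = 0.0627). For frem3 these were 1.64 and 0.198, and neither gene's groups overlapped. The dystroglycan gene dag1, whose product is a laminin receptor outside the integrin family, had 2404 ± 186 against 2503 ± 651 (log2 difference -0.03, 95% interval -0.50 to 0.44; limma, adjusted p = 0.948).

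**Figure D2:**
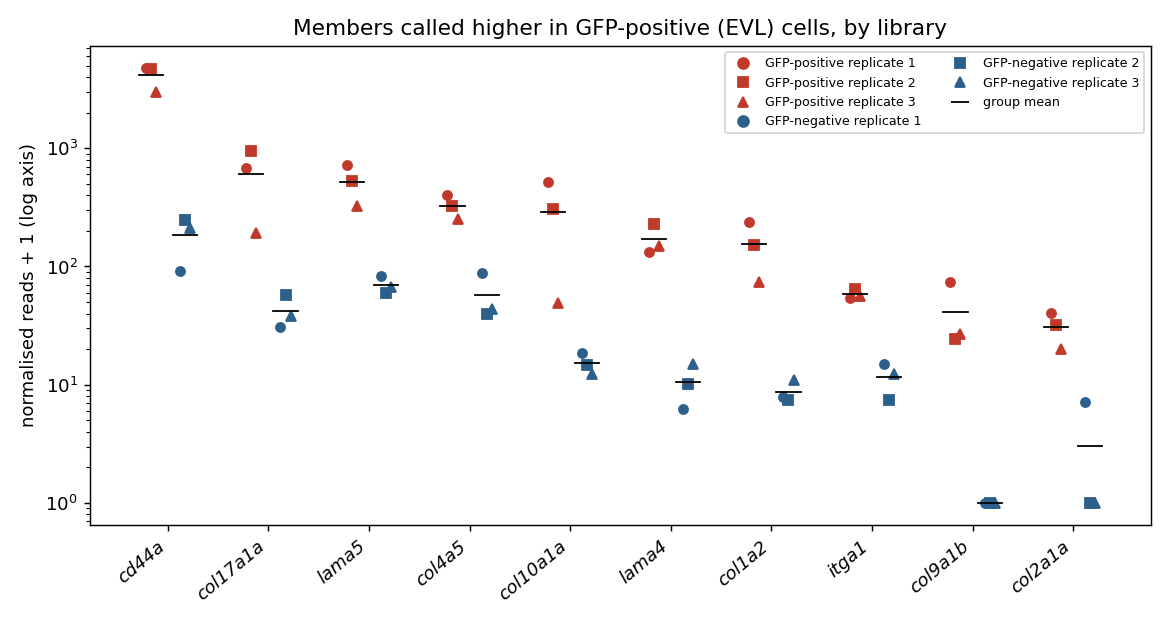
Normalised reads plus 1, on a log axis, of the 10 genes called higher in GFP-positive cells, by library (symbols give the replicate, bars the mean of the 3 libraries of a group). In each gene the 3 GFP-positive values lie above the 3 GFP-negative values, and col9a1b has 0 reads in all GFP-negative libraries.

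Collagens of several types were called higher, and none of the tested ones was called lower. Of the 27 tested collagen names, 7 had a negative difference. Among these col18a1, named after its values were seen, had 85.4 ± 10.9 normalised reads against 118 ± 15.1 without overlap (log2 difference -0.46; limma, adjusted p = 0.436). The col17a1a gene (ENSDARG00000069415), for collagen XVII, had 673, 941 and 191 normalised reads in GFP-positive replicates 1 to 3 and 29.5, 56.0 and 37.4 in the GFP-negative replicates. GFP-positive replicate 3 was the lowest of its group and still above all GFP-negative libraries (12.2-fold; log2 difference 3.61, SE 0.59; limma, adjusted p = 0.00653). Its paralog col17a1b stayed low in both groups, at 13.5 ± 3.15 and 10.4 ± 8.54 (log2 difference 0.58, 95% interval -1.04 to 2.21; limma, adjusted p = 0.680).

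The type IV collagen gene col4a5 (ENSDARG00000052063), a basement membrane chain, had 398, 322 and 249 against 86.9, 38.6 and 43.0. It was 5.95-fold higher (log2 difference 2.57, SE 0.40; limma, adjusted p = 0.00474). The col4a6 gene, its neighbour in RefSeq's gene order (assembly GRCz12tu), varied more between replicates than between groups, with 89.6, 22.1 and 3.38 against 79.1, 9.19 and 14.1. The log2 ratio of col4a5 to col4a6 was 3.93 ± 1.85 in GFP-positive and 1.21 ± 0.956 in GFP-negative libraries (SD, n = 3 each), which did not overlap (exact permutation p = 0.1). The genes of the common type IV chains, col4a1 and col4a2, which are also neighbours, were low. They had 16.0 ± 15.0 and 8.33 ± 5.09 normalised reads in GFP-positive cells and 18.5 ± 15.3 and 18.5 ± 16.3 in GFP-negative cells, and neither was called (limma, adjusted p = 0.931 and 0.670).

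Genes of fibrillar and cartilage collagens were called from between 82 (col2a1a) and 761 (col10a1a) reads in all libraries together. The fibrillar chain gene col1a2 (ENSDARG00000020007) had 236, 149 and 72.2 normalised reads against 6.95, 6.43 and 9.87 (16.0-fold; log2 difference 4.00, SE 0.54; limma, adjusted p = 0.00240). The gene of its partner chain, col1a1a, was not called, with a log2 difference of 0.44 (95% interval -0.90 to 1.78; limma, adjusted p = 0.709). The col10a1a gene, for a short-chain collagen known from cartilage and bone, had 512, 308 and 48.5 against 17.4, 13.8 and 11.3 (log2 difference 3.73, SE 0.81; limma, adjusted p = 0.0232). The spread among its GFP-positive libraries was about as large as their mean (289.5 ± 232).

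The cartilage collagen gene col9a1b had 72.4, 23.3 and 25.9 normalised reads in GFP-positive libraries and 0 reads in all 3 GFP-negative ones. Against 3 reads over the whole GFP-negative group, which sets a level of 0.820, the GFP-positive mean of 40.5 was 49.4-fold higher. That ratio allows for counting error in the GFP-negative group only. It leaves out the spread among GFP-positive libraries, so it is no lower limit of the difference. The limma fit gave a log2 difference of 5.18, with an interval of 3.30 to 7.06 (adjusted p = 0.00522). The col2a1a gene had 39.5, 31.0 and 19.2 against 6.08, 0 and 0, from 82 reads in all libraries together (log2 difference 3.95, SE 0.96; limma, adjusted p = 0.0386).

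The calls of col10a1a and col2a1a did not hold without certain single libraries. For col10a1a the adjusted p in limma rose above the threshold on leaving out GFP-positive replicate 1 or 2 (0.0701 and 0.0894), GFP-negative replicate 2 or 3 (0.0787 and 0.0850) and also in limma-voom (0.113). Its log2 difference was 4.74 without GFP-positive replicate 3 and 3.05 without GFP-positive replicate 1. The call of col2a1a was lost without any of the 3 GFP-positive libraries (limma, adjusted p = 0.142, 0.113 and 0.0767, in the order of the replicates), without GFP-negative replicate 2 or 3 (0.112 and 0.113) and in edgeR (0.0989 with the authors' factors).

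Among the other collagen names, 4 were called by DESeq2 and not by limma. Over all tested genes DESeq2 also called more, 12.4% higher against 8.80% in limma. Those for collagen chains, named after their values were seen, were col28a1 (log2 difference 2.16; adjusted p = 0.0600 in limma and 0.0121 in DESeq2), col9a2 (2.68; 0.0751 and 0.0300) and col2a1b (2.22; 0.123 and 0.0332). By limma, col28a1 was also called without GFP-negative replicate 3 (adjusted p = 0.0401), and col9a2 with a pseudocount of 5 (adjusted p = 0.0450). The other was the ceramide transfer gene col4a3bpa, which shares only its name with the collagens and had 5394, 3733 and 3614 normalised reads against 2172, 2127 and 2912. These did not overlap and stood at the threshold (log2 difference 0.81, SE 0.21; adjusted p = 0.0518 in limma, 0.0499 with a pseudocount of 5, 0.0436 with a minimum of 5 CPM and 0.0192 in DESeq2), while its paralog col4a3bpb had 262 ± 27.6 against 249 ± 21.1. Of the best covered uncalled chains, col8a1a had a log2 difference of -0.30, with an interval of -1.46 to 0.87, and col12a1a one of -0.68, with an interval of -2.65 to 1.28.

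Among genes for making and secreting collagen 1 of 25 tested (4%) was higher and 0 lower, against 8.80% of all tested genes. The called gene, colgalt2, which reached the minimum level in GFP-positive libraries only, encodes an enzyme that adds galactose to collagen and had 192, 63.1 and 67.7 normalised reads against 4.34, 6.43 and 4.23 (log2 difference 4.00, SE 0.58; limma, adjusted p = 0.00351). The prolyl hydroxylase subunit gene p4hb had 13496 ± 1579.8 against 13005 ± 4059.6 (log2 difference 0.10, 95% interval -0.45 to 0.65; limma, adjusted p = 0.852).

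Of the integrins 1 of 17 tested names was called, 5.88% against the 8.80% of all tested genes, and no difference between families was tested. The itga1 gene (ENSDARG00000074316), for a collagen-binding alpha chain, had 52.7, 63.1 and 55.3 normalised reads in the GFP-positive libraries and 13.9, 6.43 and 11.3 in the GFP-negative ones. It was 5.22-fold higher, with little spread among EVL libraries (57.0 ± 5.43 against 10.5 ± 3.79; log2 difference 2.38, SE 0.48; limma, adjusted p = 0.0171). The call did not hold on leaving out GFP-positive replicate 2, GFP-positive replicate 3 or GFP-negative replicate 2 (limma, adjusted p = 0.0705, 0.0561 and 0.0562), which leaves 0 integrins called in each of those fits. Another collagen-binding chain gene, itga2.1, had a log2 difference of 1.07 (95% interval -0.16 to 2.31; limma, adjusted p = 0.285).

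The alpha and beta chains of the fibronectin receptors had reads in every library, and none was called. The itga5 gene had 4473, 8975 and 6886 normalised reads in GFP-positive replicates 1 to 3 and 6893, 8237 and 6685 in the GFP-negative replicates. The groups overlapped, and GFP-positive replicate 1 was the lowest library (log2 difference -0.15, 95% interval -0.73 to 0.42; limma, adjusted p = 0.768). For itgb1b the values were 2247, 4527 and 3694 against 3513, 3409 and 3009 (log2 difference 0.02, 95% interval -0.56 to 0.60; limma, adjusted p = 0.976). The second beta 1 gene, itgb1a, had 515 ± 150.2 against 552 ± 114, and the log2 ratio of itgb1a to itgb1b overlapped between groups (-2.74 ± 0.0686 against -2.60 ± 0.199, SD, n = 3 each; exact permutation p = 0.4). Reads of 50 nt could be shared among itgb1b and its 2 neighbouring copies, itgb1b.1 and itgb1b.2, so values of single copies are uncertain.

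The chains of vitronectin-type receptors were likewise not called. The itgav gene had 555 ± 158 against 732 ± 193 (log2 difference -0.41, 95% interval -1.09 to 0.27; limma, adjusted p = 0.463), and itgb5 had 1784 ± 45.1 against 1973 ± 375 (-0.13, 95% interval -0.54 to 0.28; limma, adjusted p = 0.722). The intervals of itga5, itgb1b and itgb5 do not reach a 2-fold difference in either direction, a log2 difference of 1. The log2 ratio of itga5 to itgav overlapped between groups (3.59 ± 0.0869 against 3.34 ± 0.254; exact permutation p = 0.3). The alpha 4 gene itga4 had 116 ± 43.6 against 106 ± 76.7, with an interval of -0.99 to 1.69.

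**Figure D3:**
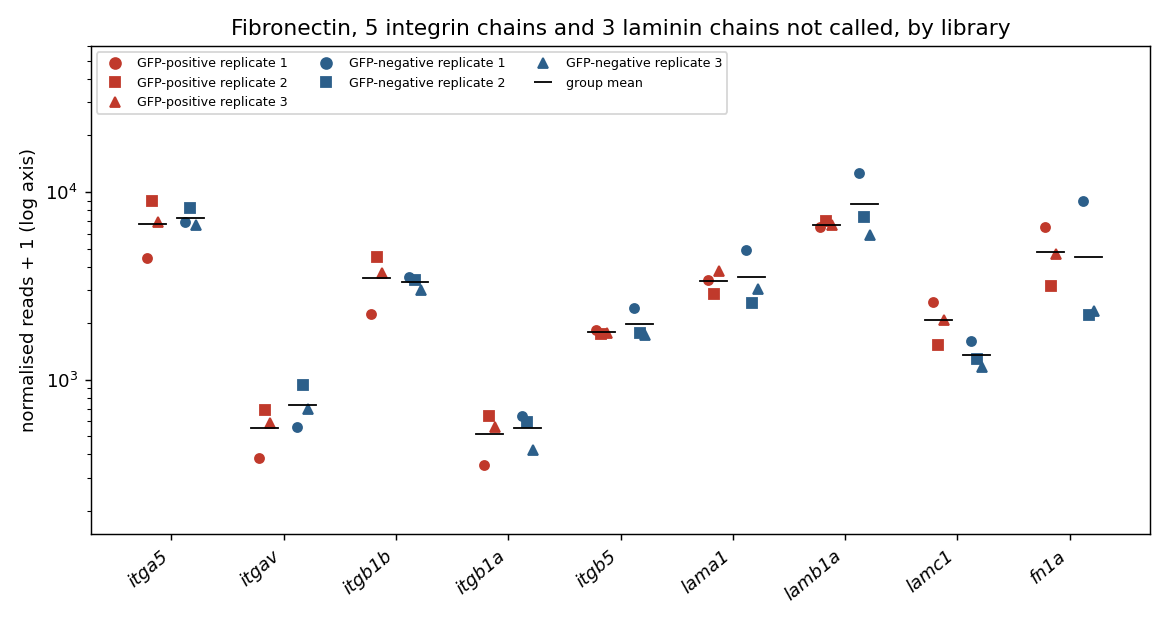
Normalised reads plus 1, on a log axis, of fn1a, 5 integrin chain genes and 3 laminin chain genes, none of them called, by library (symbols give the replicate, bars the mean of 3 libraries). The groups overlap in all 9 genes; GFP-negative replicate 1 is the highest of all 6 libraries for lama1, lamb1a, itgb5 and fn1a.

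Laminin-binding integrin chains were low and varied between replicates. The alpha 6 gene itga6a had 180.4, 25.5 and 100.4 normalised reads against 339, 68.0 and 84.6, and its paralog itga6b had 90.9, 53.1 and 24.8 against 53.9, 3.67 and 4.93. Neither was called (log2 difference -0.68 and 2.13; limma, adjusted p = 0.677 and 0.243). The log2 ratio of itga6a to itga6b was 0.982, -1.03 and 1.97 in GFP-positive replicates 1 to 3 and 2.63, 3.88 and 3.85 in the GFP-negative ones. The ratio was thus lower in every EVL library, by 2.81 (exact permutation p = 0.1). Without GFP-negative replicate 1 limma also called itga6b (log2 difference 3.26, adjusted p = 0.0311). The beta 4 gene itgb4, whose product pairs with alpha 6 in hemidesmosomes, had 27.7, 4.43 and 15.8 against 17.4, 13.8 and 24.7 (log2 difference -0.47, 95% interval -2.14 to 1.19; limma, adjusted p = 0.750). The alpha 3 genes itga3a and itga3b did not reach the minimum level, with at most 22.1 and 21.1 normalised reads in 1 library.

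Of 8 tested genes for hemidesmosomes 3 (37.5%) were higher and 0 lower, against 8.80% and 0.676% of all tested genes. Beside col17a1a, already counted above, these were pleca and the keratin gene krt5, which is also among the EVL markers of the sort given below. The pleca gene, for the linker plectin, had 4971 ± 2418 against 223 ± 68.1 (log2 difference 4.39, SE 0.38; limma, adjusted p = 0.000647). The second plectin gene plecb, named after its values were seen, had 834, 189 and 197 against 37.4, 29.4 and 109. Its groups did not overlap, and the difference missed the threshold (log2 difference 2.65, SE 0.69, limma adjusted p = 0.0514). The transmembrane chains itgb4 and itga6b, given above, were not called. Of 25 tested genes for integrin linkers and focal adhesions 2 were higher and 0 lower, 8% against the 8.80% of all genes. Both encode tetraspanins, membrane proteins that associate with integrins. Another tetraspanin gene of this list, cd151, was not called (log2 difference 0.14; limma, adjusted p = 0.952). The cd9b gene had 43588, 17413 and 11875 normalised reads against 1608, 2633 and 2322 (log2 difference 3.28, SE 0.44; limma, adjusted p = 0.00243), and cd9a had 354 ± 67.6 against 64.9 ± 15.7 (2.44, SE 0.33; limma, adjusted p = 0.00240). The integrin adaptor gene lims1 had 3317 ± 346 against 3545 ± 283 (log2 difference -0.10, 95% interval -0.45 to 0.26; limma, adjusted p = 0.758). The partner of integrin tails itgb1bp1 had 169.9, 220.3 and 217 against 271, 367 and 242, without overlap and without a call (log2 difference -0.52; limma, adjusted p = 0.315).

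The fibronectin gene fn1a (ENSDARG00000019815) had 6499, 3147 and 4694 normalised reads in GFP-positive replicates 1 to 3 and 8976, 2205 and 2309.7 in the GFP-negative replicates. Replicate 1 was the highest library in both groups, and the groups overlapped (log2 difference 0.36, 95% interval -0.86 to 1.57; limma, adjusted p = 0.740). Without GFP-negative replicate 1 the log2 difference was 1.02 (limma, adjusted p = 0.0920). Within libraries, the log2 ratio of cd44a to fn1a was -0.178 ± 0.657 in EVL and -4.41 ± 1.91 in non-EVL libraries (SD, n = 3 each), which did not overlap (exact permutation p = 0.1). Among other matrix glycoproteins 0 of 19 tested genes were called, against 8.80% higher and 0.676% lower over all tested genes (limma). At an unadjusted limma p under 0.05, 1 was higher and 1 lower, against 2528 and 1150 of all 15971 tested genes. The fibulin family gene efemp2b had 2783 ± 591 against 3816 ± 2215.

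GFP-negative replicate 1 was also the highest of its group for 15 of the 43 uncalled genes, while replicate 2 was the highest for 16 and replicate 3 for 12. GFP-negative replicate 1 had 12623 normalised reads of lamb1a against 7363 and 5910.0 in GFP-negative replicates 2 and 3, 3446 of the nidogen gene nid2a against 705 and 1015, and 6373 of efemp2b against 2564 and 2509.9. The pluripotency factor gene pou5f3 had the opposite order, with 29756 in GFP-negative replicate 1 against 80993 and 69200.1, and with 20858 in GFP-positive replicate 1 against 67108 and 52918. Its part in the replicate spread of fn1a and the laminins was not tested. Leaving out GFP-negative replicate 1 moved lamb1a from -0.29 to 0.02 on the log2 scale.

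**Figure D4:**
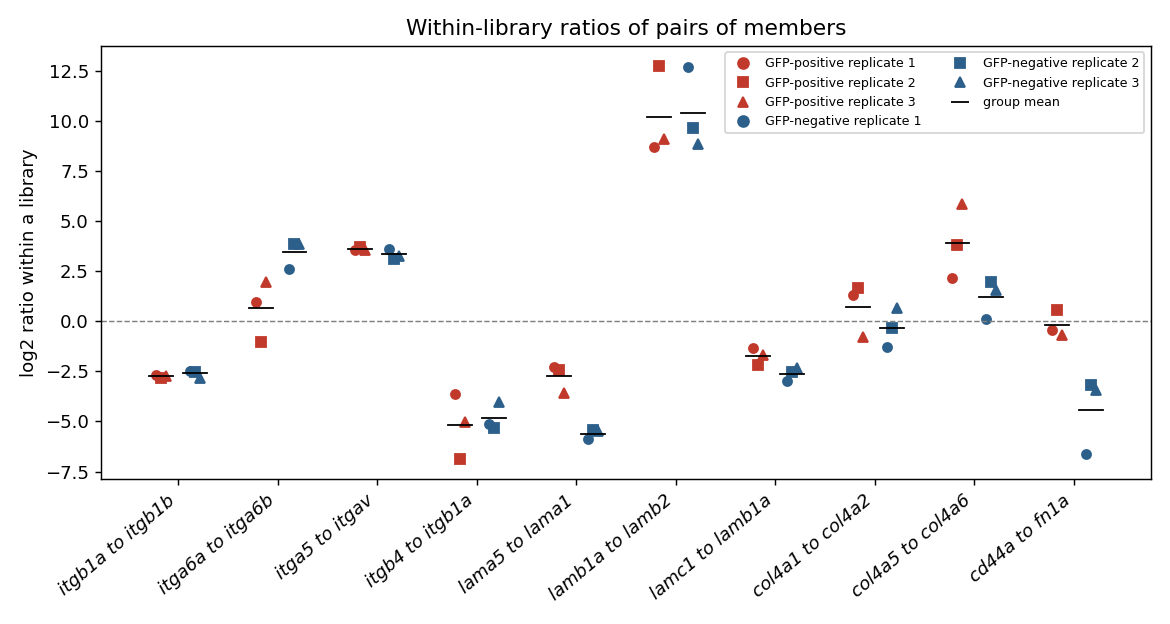
Log2 ratio of 2 genes within each library for the 10 pairs with both genes tested (symbols give the replicate, bars the mean of 3 libraries). The groups do not overlap in 5 pairs: itga6a to itga6b, lama5 to lama1, lamc1 to lamb1a, col4a5 to col4a6, and cd44a to fn1a. No such share was computed for pairs of other genes, so the count is a description only. Of all tested single genes, 17.4% lay above and 13.5% below without overlap. Of these genes lama5, col4a5 and cd44a were themselves called, so their ratios are not separate support for the calls.

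Markers of the sort were set beside these results, and their part in them was not tested. All 11 tested EVL markers, among them krt18, the reporter's own gene, and grhl3, were called higher, and their summed level was 2220120 normalised reads in GFP-positive replicate 1, 980719 in replicate 2 and 682057 in replicate 3, against 35149 to 47852 in GFP-negative libraries. Among the 10 called genes GFP-positive replicate 1 was the highest EVL library in 7 and replicate 3 the lowest in 7, with lama4, itga1 and col17a1a highest in replicate 2. In lama4 and itga1 GFP-positive replicate 1 was the lowest EVL library. Without GFP-positive replicate 1, 8 of the 53 genes were called higher and 0 lower, against 6.42% and 0.250% of all tested genes in that fit. The GFP-negative mean was a median 3.29% of the GFP-positive mean over the EVL markers, with a range of 2.62% to 5.08%. For the 10 called genes the median share was 6.21%. It was 0% in col9a1b, 4.41% in cd44a, 4.89% in col10a1a, 5.08% in col1a2, 5.63% in lama4, 6.78% in col2a1a, 6.81% in col17a1a, 13.2% in lama5, 17.4% in col4a5 and 18.5% in itga1. A low share goes with being called higher, and col9a1b, col1a2 and col2a1a were tested only through their GFP-positive values. The shares of called genes and markers are therefore a description, and no conclusion is drawn from their medians.

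Markers of other cells were measured in the same libraries, and their part in the results was not tested. Of 8 margin and mesendoderm markers sox32 and sox17 were higher and eve1 lower in GFP-positive cells, and their summed level was 41251 to 81823 in GFP-positive and 46221 to 61499 in GFP-negative libraries. All 4 epiblast markers and all 4 germ cell markers had negative differences, and 2 and 3 of these, respectively, were called lower. Over all tested genes 8.80% were called higher and 0.676% lower. Yolk syncytial layer markers summed to 173 to 507 and 296 to 495, with 0 of 3 tested called (limma; 0 at an unadjusted p under 0.05). Of 5 leukocyte markers, which summed to 2477 to 6149.6 against 101 to 270.1, lcp1 was higher and carried most of the sum, while spi1b, mpeg1.1 and csf1ra were below the minimum level. The other tested leukocyte marker, coro1a, was not called (log2 difference 0.81).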

How the data were processed

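RNA-seq of sorted GFP-positive and GFP-negative cells from 6 hpf embryos (3 libraries each, SMARTseq2, single-end reads of 50 nt, per the labels' protocols) was analysed. The authors deposited 1 normalised signal value per gene and library. The submitters' processing notes name Trim Galore, STAR 2.6.1d, featureCounts and DESeq2, with the build danRer10. The sources used here do not give the annotation release, the strand setting or how multiply matching reads were counted. The SMARTseq2 chemistry does not keep strand, so reads of overlapping antisense genes cannot be told apart.

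Dividing each column by its smallest value above 0 gave whole reads for 100% of values, within 0.01 read. Library totals were 32187658 to 46144557 reads; 1 gene (ENSDARG00000080337) took 30.1% to 42.7% of each. limma 3.58.1 (R 4.3.3) was fitted to log2(value + 1) of the 15971 genes that reached 10 in 3 or more libraries, with a term for group alone, a variance trend and robust shrinkage, with Benjamini-Hochberg adjustment. Alternatives were edgeR 4.0.16, DESeq2 1.42.0 and limma-voom on the recovered reads, other pseudocounts, filters and scalings, and each library left out; edgeR with TMM called 1422 genes higher and 52 lower, against 1405 and 108 in limma, and edgeR with library totals alone called 1269 and 904. The fit was also run on simulated counts with known changes. These had the same dispersion for every gene and no replicate effect, so they do not give error rates for these libraries.

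Family members were matched by name with regard to case. Members, lists and pairs were chosen with earlier results of these data known. Named genes were cd44a, fn1a, all called members, the 4 uncalled members with the highest means per family, those next to the filter, members of 12 fixed pairs (10 usable), and per list up to 4 called genes and the highest uncalled gene. Other named genes (has2, stab2, vcana, hapln3, hapln1b, cd44b, lama3, LAMB3, col1a1a, col17a1b, col18a1, col28a1, col9a2, col2a1b, itga2.1, itga3b, cd151, plecb, nid2a, nid2b, frem3, pou5f3) were chosen after their values were seen.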

Additional observations from a re-analysis of the deposited data

How the results depend on the processing

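The 10 calls kept their direction in all 17 alternative fits that gave a value, and 7 kept the call in every one of them (cd44a, lama4, lama5, col1a2, col4a5, col9a1b and col17a1a, where tested). Fits with a library left out kept the genes that passed the minimum level in all 6 libraries. There col1a2, col9a1b and col2a1a stayed in only through their GFP-positive values, so their kept direction or call is not separate support. The number of members called higher was 9 to 12 in most alternatives. Outside DESeq2 and the minimum of 5 CPM, the share of all tested genes called higher ran from 5.82% to 9.85%. The lowest share was that with no filter on low values, where 25863 genes were tested, and the highest that with the replicate block. The number of members was 14 in DESeq2, where 12.4% of all tested genes were higher. With each library left out it was 7 to 11, where 6.23% to 8.16% of all tested genes were higher. With a minimum of 5 CPM in 1 group it was 6, where only 19 members were tested and 11.1% of all tested genes were higher. With that minimum 0 integrins and 1 laminin were called, and itga1 and lama4 did not reach it, so neither was tested. DESeq2, with 12.4% of all tested genes higher, called 10 collagen names, 1 of them col4a3bpa, which encodes no collagen. The cause of this count was not tested. With genes that reached the minimum level in both groups only, a setting chosen after seeing the data, 7 members and 3 collagens were called higher, with fewer genes tested. Integrins called ranged from 0 to 2 with each library left out. No alternative called a member lower. Over all tested genes 14 (0.0877%) were lower without GFP-negative replicate 2, the fewest of any alternative. DESeq2 called 333 lower (2.09%, with 1974 higher), and library totals alone gave 904 (5.66%), the most. The absence of lower members was not tested against these shares. Ratio differences changed sign without single libraries for itgb4 to itgb1a (-1.14 to 0.503) and lamb1a to lamb2 (-1.50 to 0.953). Of the 43 uncalled members 23 changed sign in at least 1 alternative, without being called. Scaling to library size alone or to the upper quartile moved the median of all genes from -0.057 to -0.37 and -0.24, and that of the members from 0.26 to -0.22 and -0.045. Matching names without regard to case added 14 genes, 4 of them tested, and 0 calls (limma; 1 at an unadjusted p under 0.05). With the replicate block 10 members were called higher and no member call changed. Over all genes 1573 were then higher and 279 lower, against 1405 and 108. Same-numbered libraries deviated together with correlations of 0.259, 0.328 and 0.0748, all positive. Differently numbered libraries were not compared in this way, and the labels do not say whether the numbers mark pairs. The main fit left the numbers out, so a replicate effect shared by both groups was not modelled in it. The low read totals of col2a1a (82), col9a1b (99) and itga1 (185) limit what these libraries can show for them.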
